A study of Mus musculus with 10 samples.

Results

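The genes described here are 10 enzymes of phospholipid synthesis: the choline kinases Chka and Chkb, the ethanolamine kinase Etnk2, the CTP transferases Pcyt1a and Pcyt2, the phosphotransferases Chpt1 and Cept1, the methyltransferase Pemt, and the lipins Lpin1 and Lpin2. They were found by gene symbol among 27541 probe sets, and each of 8 had 1 probe set of its own, out of 19933 genes with such a probe set. The only probe set of Chkb is shared with Gm44502, a non-coding transcript that also spans its neighbour Cpt1b, and Etnk2 is not analysed here. Livers came from 5 wild-type (WT) mice and 5 mice labelled Nr1d1-/- (KO), which lack Rev-erb alpha, a nuclear receptor that represses transcription as part of the circadian clock. All were male C57Bl/6 mice of 10 to 12 weeks, on chow, with 12 h light and 12 h dark a day, and were killed at ZT10, that is 10 h after lights on. The deletion is carried by the whole animal, and the KO line was backcrossed for at least 7 generations while the WT mice were bought, so genotype and origin of the mice cannot be told apart. Each array held the RNA of 1 liver.

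Phosphatidylcholine, the main phospholipid of hepatocyte membranes, bile and lipoprotein surfaces, is built in the CDP-choline pathway. A choline kinase phosphorylates choline, a CTP-dependent transferase activates the product to CDP-choline, and a phosphotransferase joins it to diacylglycerol. A parallel branch starts from ethanolamine, and in liver Pemt also methylates phosphatidylethanolamine to phosphatidylcholine. Lipins are phosphatidate phosphatases that supply the diacylglycerol, and lipin 1 also acts in the nucleus with PGC-1alpha and PPARalpha. In liver Lpin1 is known as a gene induced by fasting and glucocorticoids.

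The 10 genes were chosen by pathway, but also on the KO minus WT log2 differences of these arrays, so their differences and adjusted p-values describe the data and do not test the choice. Of the 8 genes with a probe set of their own, Chka and Chpt1 rose in KO liver, none fell and 6 did not pass (limma, p adjusted by Benjamini-Hochberg over the whole table, threshold 0.05). Of all genes tested 5.61% passed, 3.17% higher and 2.44% lower, and nothing is read from the 2 of 8 against this, since the contrast served the choice. Their median difference was -0.0024 and that of all genes 0.0083, in log2 units of KO minus WT, the scale of every difference below. Levels are log2 intensities, and 1 unit is a doubling. Because liver was taken whole, fewer cells of a type and less RNA per cell cannot be told apart in any value. All livers were taken at ZT10, so a change of level and a shift of daily timing cannot be told apart either. Differences at other times of day were not measured.

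Promoter sequence is shown for the 2 genes that rose and for Lpin2, the lipin whose window held a clock motif. The sequences are from RefSeq, build GRCm38.p6, 5′ to 3′ on the strand of the gene, each ending at the base before the first annotated base of the gene. The given window of Chka runs past that base, which leaves 62 of its 250 bases. Capitals mark an E-box (CACGTG), the element bound by CLOCK and BMAL1.
Chka, chr19:3851523-3851584, plus strand: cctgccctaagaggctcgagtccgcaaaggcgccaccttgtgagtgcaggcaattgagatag
Chpt1, chr10:88503971-88504220, minus strand: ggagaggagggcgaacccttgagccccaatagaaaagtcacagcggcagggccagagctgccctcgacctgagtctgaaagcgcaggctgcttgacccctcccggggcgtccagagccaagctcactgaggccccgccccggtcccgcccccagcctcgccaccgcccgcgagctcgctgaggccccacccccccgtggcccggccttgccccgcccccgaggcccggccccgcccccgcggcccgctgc
Lpin2, chr17:71183282-71183531, plus strand: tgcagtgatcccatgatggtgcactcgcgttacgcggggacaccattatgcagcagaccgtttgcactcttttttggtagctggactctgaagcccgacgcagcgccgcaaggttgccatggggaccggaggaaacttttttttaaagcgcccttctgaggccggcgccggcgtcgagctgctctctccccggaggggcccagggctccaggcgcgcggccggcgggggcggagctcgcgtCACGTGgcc
Upstream windows of 250 bases before a start were given for 9 of the 10 genes, 16 windows in all, and were searched on both strands. The Rev-erb and ROR response element (GGTCA behind an A- and T-rich flank) and its paired form (GGTCA repeated after 3 bases) had no match in them, and are held by 0.49% and 0.07% of all 32851 such windows. The E-box matched in 1 window, that of Lpin2 printed above, at bases -9 to -4 from the start, beside 6.02% of all windows. For the D-box, the element of DBP and NFIL3, the search string TTANNTAA left the middle bases open. It matched in 1 window of Cept1, as TTATTTAA, beside 5.43% of all windows, which were not matched for base composition. That window is 27.6% GC, against a median of 52.4% over all windows. That window begins inside an annotated gene. So do the other windows of Cept1, those of Chkb, Pemt and Lpin1 and some of Pcyt1a and Lpin2. These matches are letters only, and no binding was measured here.

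Chka, which encodes choline kinase alpha and so the entry step for choline, rose 2.57-fold. WT replicates 1 to 5 read 8.40, 8.80, 8.53, 8.04 and 8.14, and KO replicates 1 to 5 read 9.49, 9.47, 9.52, 9.96 and 10.26. The groups were separated by a gap of 0.68, with all KO livers on the upper side and KO replicates 4 and 5 the highest. The means were 8.38 ± 0.30 in WT and 9.74 ± 0.35 in KO (SD, n = 5 each). KO exceeded WT by 1.36, SE 0.17 (limma adjusted p = 0.000541). Among the 632 genes called higher in KO, Chka ranked 27th by size. KO replicates 4 and 5 were, with WT replicate 1, also the arrays with the widest interquartile range of all probe sets (2.96 to 2.99, against 2.80 to 2.94 in the others). Without these 3 arrays the difference of Chka was 1.12 (adjusted p = 0.00942).

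The probe set shared by Chkb, the second choline kinase gene, and Gm44502 gave no call. WT replicates 1 to 5 read 8.15, 8.17, 8.03, 8.49 and 8.27, and KO replicates 8.35, 8.29, 8.79, 8.44 and 8.73. The groups overlapped, and KO replicates 3 and 5 stood highest. In a fit over every probe set the difference was 0.30 with SE 0.11 (limma adjusted p = 0.195). The other probe set of Gm44502, shared with the carnitine palmitoyltransferase gene Cpt1b, was also highest in KO replicates 3 and 5, at 8.30 and 8.07, while the other 8 livers read 7.33 to 7.54. Signal of Chkb and of the spanning transcript cannot be told apart with these probe sets.

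**Figure D1:**
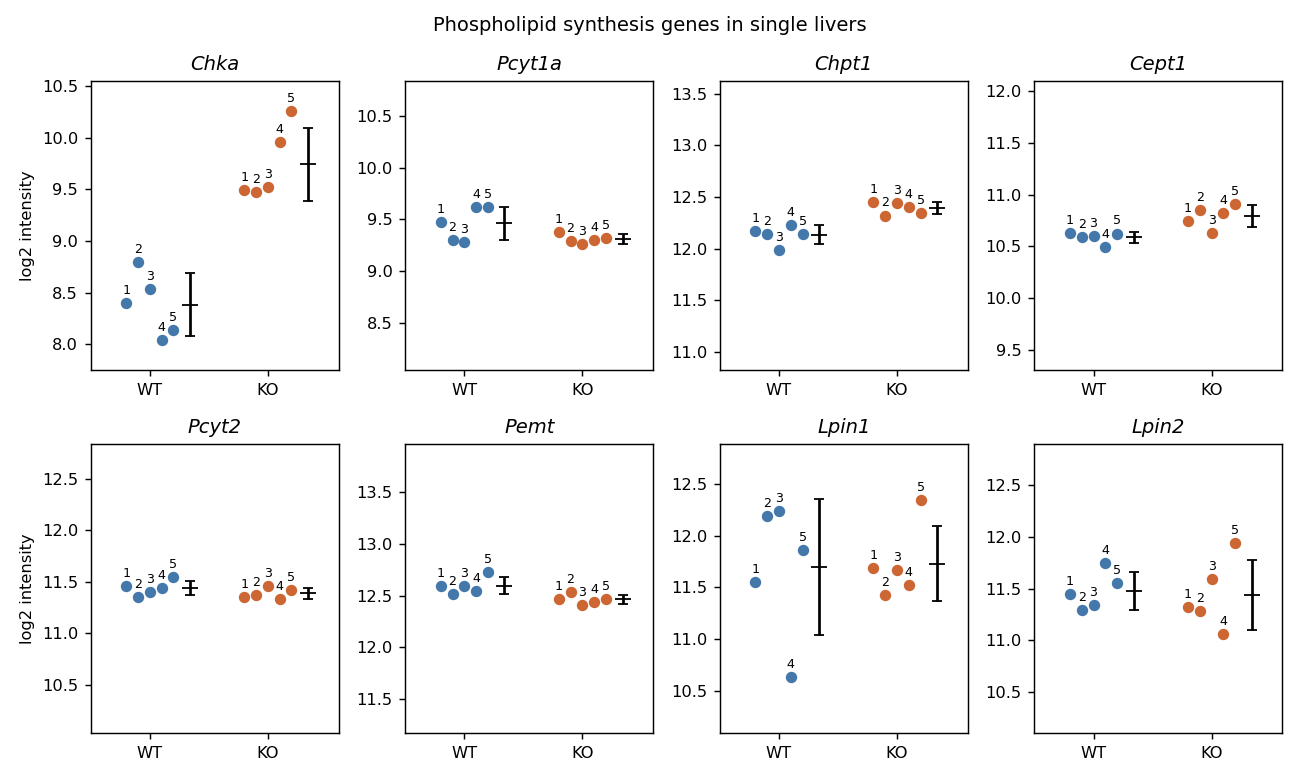
Log2 intensity of 8 phospholipid synthesis genes in single livers, WT in blue and KO in orange, with replicate numbers beside the points and mean ± SD (n = 5) as black bars; every panel spans the same range in log2 units, around its own gene's level. Chka is separated by 0.68 between the groups, while Lpin1 spans 10.63 to 12.24 within WT alone.

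Pcyt1a, whose product makes CDP-choline and is often the rate-limiting step, did not pass. WT livers read 9.48, 9.30, 9.28, 9.62 and 9.62, and KO livers 9.38, 9.29, 9.26, 9.30 and 9.32. The KO livers lay close together near the bottom of the WT range, and KO replicate 3 was the lowest of all. The difference was -0.15 with SE 0.071 and a 95% interval from -0.31 to 0.0032 (limma adjusted p = 0.301). The matching gene of the ethanolamine branch, Pcyt2, was one of the steadiest of the group, at 11.35 to 11.54 in WT and 11.33 to 11.46 in KO. Its difference was -0.051, with a 95% interval from -0.16 to 0.054 (limma adjusted p = 0.705).

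Chpt1, the cholinephosphotransferase that completes phosphatidylcholine, rose 1.20-fold. WT livers read 12.17, 12.14, 11.99, 12.23 and 12.14, and KO livers 12.45, 12.32, 12.44, 12.41 and 12.35. No KO liver overlapped a WT liver, and the gap between the groups was 0.089. The means were 12.14 ± 0.089 and 12.39 ± 0.059 (SD, n = 5 each), and KO exceeded WT by 0.26, SE 0.053 (limma adjusted p = 0.0126). The call was lost without the 3 arrays of widest interquartile range (adjusted p = 0.0752), at a difference of 0.28.

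Cept1, which serves both the choline and the ethanolamine branch at this last step, stood just short of the threshold. WT livers read 10.63, 10.59, 10.60, 10.49 and 10.62, and KO livers 10.75, 10.85, 10.63, 10.82 and 10.91. The groups did not overlap, but KO replicate 3 lay only 0.0027 above the highest WT liver. The difference was 0.20 with SE 0.056 and a 95% interval from 0.081 to 0.33 (limma adjusted p = 0.0567). Without KO replicate 3 it passed, at 0.24 (adjusted p = 0.0191). In all, the groups did not overlap in 3 of the 8 genes (37.5%), Chka, Chpt1 and Cept1, beside 7.00% of all genes. Nothing is read from this share either, since the contrast served the choice of the genes.

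Pemt, the methyltransferase that gives liver its second route to phosphatidylcholine, read 12.60, 12.52, 12.59, 12.55 and 12.73 in WT and 12.47, 12.53, 12.41, 12.44 and 12.47 in KO. The groups overlapped only through KO replicate 2, which lay just above WT replicate 2. The difference was -0.13 with SE 0.049 and a 95% interval from -0.24 to -0.026 (limma adjusted p = 0.164). The sign of this difference was opposite to that of Chpt1, and it did not pass in any of 18 alternative settings (adjusted p from 0.0614 to 0.370).

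**Figure D2:**
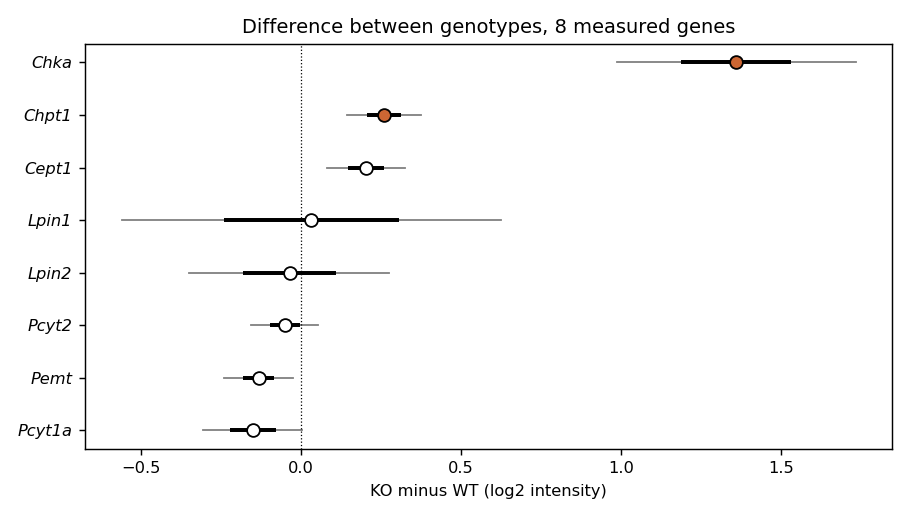
KO minus WT in log2 intensity for the 8 genes, with SE (thick bars) and 95% interval (thin lines) from limma; filled points passed an adjusted p under 0.05 over all genes. Chka (1.36) lies apart from the other 7, and the interval of Lpin1 runs from -0.56 to 0.62.

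Neither lipin gene passed, and both varied widely between mice of one genotype. Lpin1 read 11.56, 12.19, 12.24, 10.63 and 11.86 in WT replicates 1 to 5, and 11.68, 11.43, 11.66, 11.52 and 12.35 in KO replicates 1 to 5. The 2 groups overlapped, with WT replicate 4 alone far below and KO replicate 5 highest of all. The WT livers spanned 3.05-fold and the KO livers 1.90-fold. The difference was 0.032 with SE 0.27 and a 95% interval from -0.56 to 0.62 (limma adjusted p = 0.977). Its sign turned in 6 of 18 settings, among them the fits without WT replicate 4 (-0.23) and without KO replicate 5 (-0.12).

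Lpin2 read 11.45, 11.29, 11.34, 11.75 and 11.56 in WT, and 11.32, 11.28, 11.59, 11.06 and 11.95 in KO. Here KO replicate 5 was highest and KO replicate 4 lowest, so the KO livers spanned the WT range on both sides. The difference was -0.037 with SE 0.14 and a 95% interval from -0.35 to 0.28 (limma adjusted p = 0.949), with a sign that turned in 3 of 18 settings. Within WT the 2 lipin genes were ordered against each other at the extremes. WT replicates 2 and 3 had the highest Lpin1 and the lowest Lpin2, and WT replicate 4 had the lowest Lpin1 and the highest Lpin2. The KO livers did not repeat this, since KO replicate 5 was highest for both. Lpin3, the remaining lipin gene, differed by 0.0037 with SE 0.060 (limma adjusted p = 0.987).

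The spread between mice of one genotype, a measure that does not use the genotype difference, divided the genes further. It was 0.53 for Lpin1, 0.33 for Chka and 0.27 for Lpin2 (SD of log2 intensity about the genotype means), against a median of 0.10 over all genes. These values were above those of 99.7%, 98.6% and 97.5% of all genes, and above those of 99.7%, 97.3% and 96.2% of genes whose mean log2 intensity lay within 0.5 of theirs. Chpt1 (0.075), Pemt (0.066) and Pcyt2 (0.063) were below the median of all genes, as was Cept1 (0.084), and Pcyt1a was at 0.12. The 2 most variable genes shared 3 of their 4 extreme livers: WT replicate 4 was lowest, KO replicate 2 lowest among KO and KO replicate 5 highest for both Chka and Lpin1. The highest WT liver was replicate 2 for Chka (8.80) and replicate 3 for Lpin1 (12.24). What differed between these mice was not tested.

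**Figure D3:**
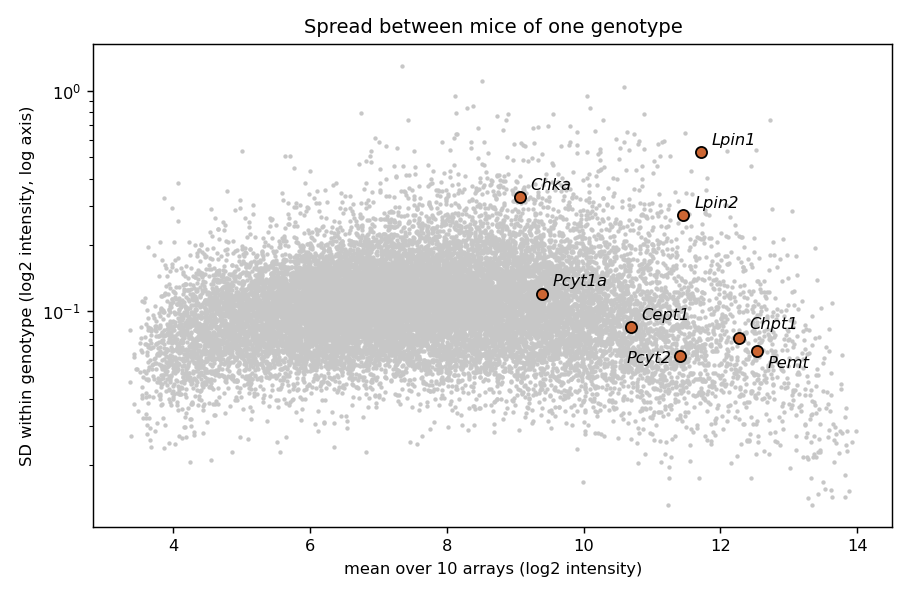
Spread between mice of one genotype (SD of log2 intensity about the genotype means, log axis) against the mean of the 10 arrays, for all 19933 genes in grey and the 8 phospholipid synthesis genes in orange. Lpin1 (0.53), Chka (0.33) and Lpin2 (0.27) lie near the upper edge of the cloud, the other 5 within it.

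Genes that varied most like Chka and Lpin1 within genotype were sought among 9966 other genes with a mean at or above the median, by Pearson's r over the 10 arrays after each genotype's mean was removed. For Chka these were R3hdm1 (r = 0.985), the liver transcription factor gene Hnf4a (r = 0.979) and the kinase gene Clk3 (r = 0.976). Without WT replicate 2 and KO replicate 5, the 2 arrays farthest out for Chka, r was 0.963, 0.959 and 0.941, and Spearman's rho over all 10 arrays was 0.964, 0.915 and 0.794. The size of the variation was smaller in these genes, with an SD within genotype of 0.16, 0.10 and 0.099. For Lpin1 they were Tbc1d8 (r = 0.956), Pptc7 (r = 0.952) and Efhd2 (r = 0.942). Without WT replicate 4 and KO replicate 5, r was 0.879, 0.894 and 0.872, and rho over all 10 arrays was 0.770, 0.721 and 0.758. These are the best matches of a large search over arrays that share each library's quality, and are given as a description.

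Other genes in and around phospholipid metabolism, with methyl donor, ceramide and lipin 1 regulator genes among them, were grouped in 7 lists. Of their 132 measured genes, 19 rose and 4 fell. That is 17.4%, beside 5.61% of all genes, with a median difference of 0.034 against 0.0083. The lists were drawn up with earlier results of these data known, so nothing is read from this share or those of single lists. The 5.61% also counts dim genes, and with the dimmest removed 1206 of 14950 genes were called. In the list of choline and ethanolamine entry and the CDP branches, 1 of 11 rose, 1 fell and 9 did not pass. Selenoi, the ethanolamine phosphotransferase that parallels Chpt1, read 11.29, 11.17, 11.10, 11.20 and 11.18 in WT and 11.50, 11.55, 11.59, 11.51 and 11.48 in KO. All KO livers were above all WT livers, a rise of 0.34 (SE 0.046, limma adjusted p = 0.000967). The choline transporter-like gene Slc44a3 fell by 0.46 (SE 0.072, adjusted p = 0.00230). Slc44a1, a choline transporter named after its values were seen, differed by 0.46 with SE 0.14 and did not pass (adjusted p = 0.0781).

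Around the lipin step, 5 of 25 genes of glycerolipid acylation and diacylglycerol rose, none fell and 20 did not pass. Plpp1, a lipid phosphate phosphatase of the cell surface, rose by 0.56 (SE 0.11, limma adjusted p = 0.00937), from 8.63 ± 0.21 to 9.19 ± 0.19 (SD, n = 5 each). The monoacylglycerol acyltransferase Mogat1 rose by 0.38, the diacylglycerol kinase Dgka by 0.37 and the acyltransferases Agpat3 and Agpat2 by 0.29 and 0.21. Mogat1 read 5.85 in WT, below the lower quartile of every array, so whether its level was above background is unknown. Agpat2 lost its call when any 1 of the 10 arrays was left out (adjusted p up to 0.119 over its settings), and Agpat3 (adjusted p = 0.0643) and Dgka (0.122) lost it without the 3 arrays of widest interquartile range. In the CDP-diacylglycerol branch 2 of 13 rose and 11 did not pass: the phosphatidylserine synthase Ptdss1 by 0.19 and Taz, the tafazzin gene of cardiolipin remodelling, by 0.19. Leaving out any 1 of 6 arrays ended the call of Ptdss1 (largest adjusted p over its settings 0.183), and any 1 of 9 that of Taz (0.116). Neither was called without the 3 arrays of widest interquartile range.

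Of 36 remodelling and turnover genes 3 rose, 2 fell and 31 did not pass. The phospholipase D gene Pld1 rose by 0.43 (SE 0.051, limma adjusted p = 0.000333), Pla2g12b, a secreted phospholipase A2-like gene, by 0.40 and Napepld by 0.26. Gdpd1 and Gde1, both of the glycerophosphodiester phosphodiesterase family, fell by 0.42 and 0.35. Leaving out any 1 of 7 arrays ended the call of Napepld (largest adjusted p over its settings 0.141), as it did for Gde1 (0.133), and Gdpd1 lost it without the 3 arrays of widest interquartile range (0.0572).

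In the list of choline oxidation and methyl donors, which also holds genes of methionine and homocysteine metabolism, 5 of 13 rose, none fell and 8 did not pass (38.5%, median difference 0.12). The betaine-homocysteine methyltransferase Bhmt rose by 0.30 (SE 0.053, limma adjusted p = 0.00520) and its homologue Bhmt2 by 0.26. The size for Bhmt depends on the probe set rule, with a difference of 0.37 for the mean of its probe sets. The dehydrogenases that take up the next methyl groups, Dmgdh and Sardh, rose by 0.34 and 0.19, and Cbs, which draws homocysteine into cysteine synthesis, by 0.30. Bhmt and Bhmt2 are close homologues, and cross-hybridization between them was not tested. Without the 3 arrays of widest interquartile range 2 of the 13 were called, Bhmt2 and Dmgdh, at 0.29 and 0.34, while Bhmt (adjusted p = 0.0532), Cbs (0.0561) and Sardh (0.0928) were not. Sardh also lost the call without WT replicate 3 (0.0520) or KO replicate 4 (0.0512).

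Among 12 partners and regulators of lipin 1, the nuclear receptor gene Ppard rose by 0.43 (SE 0.11, limma adjusted p = 0.0421) and 11 did not pass. Leaving out any 1 of 9 arrays ended that call, and its largest adjusted p over the settings was 0.173.

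**Figure D4:**
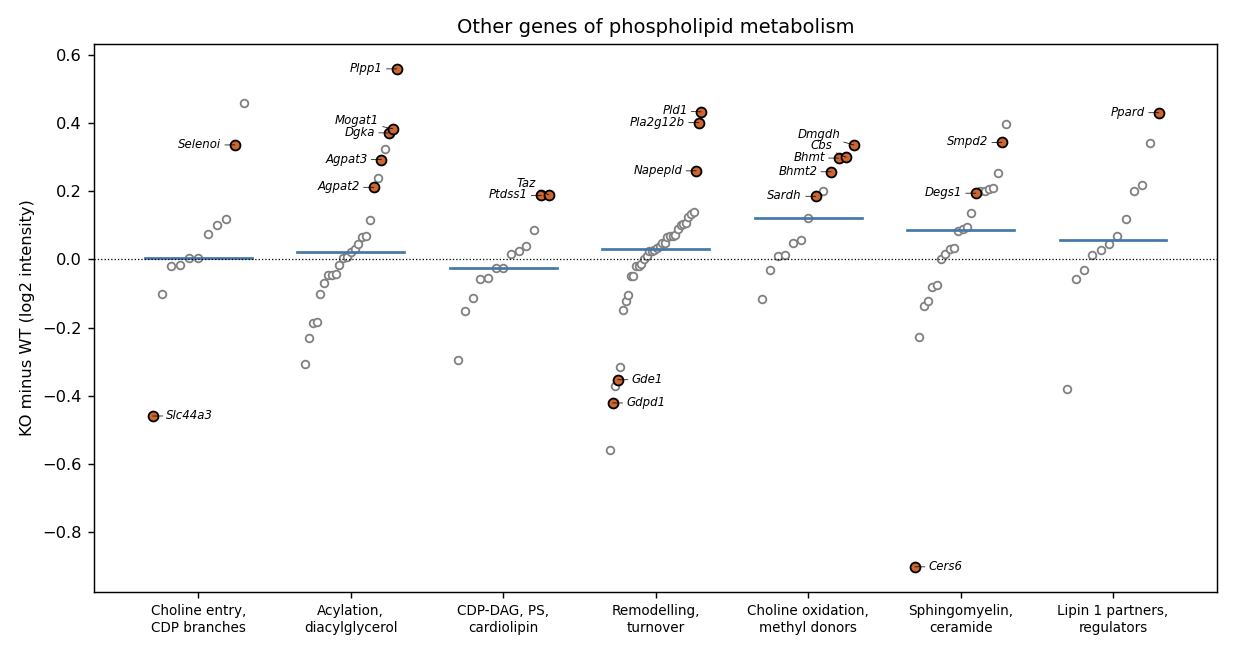
KO minus WT in log2 intensity for the measured genes of 7 lists around phospholipid synthesis, ordered by value within each list; filled, named points passed a limma adjusted p under 0.05 over all genes, and blue lines are list medians. The list of choline oxidation and methyl donors has a median of 0.12 and 5 filled points, all above 0; differences between lists were not tested.

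The liver label was checked against markers. The mean log2 intensity of 8 hepatocyte markers lay between 13.58 and 13.65 in WT and between 13.54 and 13.64 in KO arrays. Of 59 measured marker genes in 10 lists of cell types and tissues, Sox9 of the cholangiocyte list rose by 0.62 (limma adjusted p = 0.0129) and the others did not pass. That list's mean, which includes Sox9, was 6.69 to 6.82 in WT and 6.80 to 7.01 in KO arrays. The other measured genes of the list, Krt19, Krt7, Epcam and Cftr, differed by -0.017, -0.11, -0.0071 and 0.11. The part of cholangiocytes in the differences above was not tested. The Nr1d1 probe set did not separate the genotypes, with a difference of 0.14 (SE 0.18, limma adjusted p = 0.803), and the sources do not say whether it covers the deleted part. If it lies outside that part, it checks nothing about the labels.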

How the data were processed

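RNA of single livers was hybridized to Affymetrix Mouse Gene 1.0 ST arrays, per the labels' protocols. The authors deposited normalized intensities on a linear scale (8.93 to 18280). The submitters' processing notes list RMA and Partek with no version. Filters and genome build are not given in the sources used here. Array medians lay between 156 and 165. Detection calls were not used here, signal over background is therefore unknown, and the number of arrays limits the precision.

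Values were taken to log2. Of the probe sets, 21631 had 1 gene symbol in the array annotation, 1317 several and 4593 none. The probe set of highest mean stood for each of 951 genes with more than 1. The contrast of KO and WT was fitted in limma 3.58.1 under R 4.3.3 (lmFit and eBayes, two-sided, no covariates) over 19933 genes, with Benjamini-Hochberg adjustment. The shared probe set of Chkb was fitted with all 27541 probe sets, a choice made after seeing the data. The error in each p is the spread among these mice, moderated by eBayes toward a spread estimated over all genes of the fit. The fit was also run on simulated data with independent noise in each gene and added shifts. Those data lack variation shared by the genes of an array, so they do not test the calls against it. The genes and lists were chosen with earlier results of these data known. Named are the 10 genes, called genes of each list (up to 6, by adjusted p), Nr1d1 and the 3 genes most like Chka and Lpin1. Alternatives changed the probe set rule, dim-gene filter, normalization, variance model, array weights, threshold and arrays used.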

Additional observations from a re-analysis of the deposited data

Results flagged for a closer look

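Each of the 8 genes was examined in both genotypes for a liver far from the other 4 (16 groups of 5 livers), of which chance flags about 1 in 20. Lpin1 in KO replicate 5, at 12.35, stood above the other KO livers by 0.720 of the group's range, past Dixon's 95% limit for 5 values. Cept1 in WT replicate 4, at 10.49, stood below the other WT livers by 0.727 of the range, which is only 0.13 wide. No explanation of either was tested.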

How the results depend on the processing

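Chka kept its call in all 18 settings (difference 1.12 to 1.46, adjusted p up to 0.00942). Over all genes 1119 were called, 805 to 1248 with 1 array left out, 527 without the 3 arrays of widest interquartile range and 497 at an adjusted p under 0.01. Of the 8 phospholipid synthesis genes 2 were called, 2 to 3 with 1 array left out, and 1, Chka, in each of the last 2 settings. Cept1 passed in 5 settings, without dim genes (adjusted p = 0.0478), with quantile normalization repeated (0.0365), with a mean-variance trend (0.0456), with array weights (0.0415) and without KO replicate 3. Lpin1 turned sign with quantile normalization repeated (-0.0019), array weights (-0.0062) and without the 3 arrays (-0.14), and ranged from -0.23 to 0.17 with 1 array left out. With 1 array left out, Lpin2 ranged from -0.16 to 0.058 and Nr1d1 from -0.0175 to 0.30. The cause of these changes was not tested, beyond the fewer samples in such fits. Of 23 called genes of the lists, 23 kept their sign and 9 their call in every setting run for them, which was 18 settings, or 17 for Mogat1, a gene that the dim-gene filter removed, and 14 lost the call without the 3 arrays. With array medians centred the CDP-diacylglycerol list had 0 calls against 2 and the lipin 1 partners 0 against 1, and the split of all calls was 497 higher and 489 lower against 632 and 487. No paired analysis was possible because the labels give no replicate numbers shared by the genotypes. The replicate numbers used here are only the order of the samples within each genotype. Numbers in the sample titles, whose meaning is not given, were not used. A running number among them puts all WT before all KO samples, so that order and genotype cannot be told apart. Intensities are not counts, so depth does not apply.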

Other observations

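Sphingomyelin takes its head group from phosphatidylcholine, and its genes were examined in a list of their own. Of 22 measured genes of sphingomyelin and ceramide, 2 rose, 1 fell and 19 did not pass (13.6%, beside 5.61% of all genes). Nothing is read from this share, since this list too was drawn up with earlier results known. Cers6, a ceramide synthase that favours long-chain rather than very-long-chain acyl groups, read 9.93, 9.99, 10.56, 9.99 and 10.03 in WT livers and 8.95, 8.99, 9.09, 9.37 and 9.59 in KO livers. All KO livers lay below all WT livers, and it fell by 0.90 (SE 0.14, limma adjusted p = 0.00236), with differences from -1.13 to -0.79 over 18 settings, in each of which it kept the call. Smpd2, a neutral sphingomyelinase gene, rose by 0.34 and the dihydroceramide desaturase gene Degs1 by 0.19. The call of Smpd2 ended when the 3 arrays of widest interquartile range were left out (adjusted p = 0.129), and that of Degs1 when any 1 of 8 arrays was (largest adjusted p over its settings 0.130).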
